A study of Mus musculus with 42 samples.

Results

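Oxidative phosphorylation was followed gene by gene in mouse bone marrow-derived macrophages, at the level of RNA. The members are the rows of the deposited count table whose symbol starts with mt-, Nduf, Uqcr, Atp5 or Cox4 to Cox8, together with Sdha, Sdhb, Sdhc, Sdhd, Cyc1 and Cycs. This rule, which uses names and no measured value, gave 101 genes of 11160. Of these, 13 are encoded by the mitochondrial DNA (7 subunits of complex I, 1 of complex III, 3 of complex IV and 2 of complex V) and 88 by the nucleus (36 of complex I, 4 of complex II, 9 of complex III, 14 of complex IV, 16 of complex V, cytochrome c itself and 8 assembly factors of complex I).

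The cells were grown from bone marrow with the growth factor M-CSF, detached, plated again and treated on the following day. The groups were MS4A4A KO and WT cells, each kept for 2, 8 or 24 h with 1 µM of the synthetic glucocorticoid dexamethasone (Dex) or with vehicle, or untreated (the baseline). This makes 14 groups of 3 libraries, 42 in all, made with a SMART-Seq mRNA kit. The labels name no strain, age or sex, and they do not say whether the replicates came from separate animals or cultures, so p-values measure the spread between these libraries, which may be technical.

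Oxidative phosphorylation passes electrons from NADH through complex I, or from succinate through complex II, to ubiquinone, then through complex III and the small carrier cytochrome c to complex IV, which reduces oxygen. Complexes I, III and IV pump protons out of the mitochondrial matrix, and complex V, the ATP synthase, uses the returning protons to make ATP. Complex II is the only one encoded wholly in the nucleus, and it is also an enzyme of the tricarboxylic acid cycle. In macrophages, succinate oxidation and respiratory capacity are known to differ between inflammatory and alternatively activated states. The mitochondrial DNA is transcribed from both strands as long precursors that are cut into the separate mRNAs, some of which carry overlapping reading frames.

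The overlaps bear on how the mt- genes can be read, since reads from a shared stretch fit either gene. The following stretches of the mitochondrial DNA (GRCm38, plus strand, capitals for the bases that belong to both genes) are the end of mt-Atp8 with the start of mt-Atp6, where 43 bases are shared at chrM:7927-7969, and the end of mt-Nd4l with the start of mt-Nd4, where 7 bases are shared at chrM:10167-10173. Each is shown with 12 bases on either side.
mt-Atp8 end and mt-Atp6 start: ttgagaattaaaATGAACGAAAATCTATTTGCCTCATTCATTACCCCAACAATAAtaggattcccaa
mt-Nd4l end and mt-Nd4 start: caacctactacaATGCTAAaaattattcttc
In each case the capitals open with the start codon of the downstream gene. mt-Nd5 on the plus strand and mt-Nd6 on the minus strand also overlap at their ends, and mt-Nd6 is the only member read from that strand. The values of mt-Atp8 and mt-Atp6, and of mt-Nd4l and mt-Nd4, are therefore not independent of each other. The sources used here do not say if reads were assigned by strand. The values of mt-Nd5 and mt-Nd6 may thus not be independent either, and RNA of the plus strand may have been counted for mt-Nd6.

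The libraries held 10140211 to 33528397 counts (median 27998690), and each of the 101 members had counts in each of the 42 libraries. Ms4a4a averaged 46.7 CPM (counts scaled to a common library total) in KO untreated and 89.1 in WT untreated libraries, and 765 in KO and 1587 in WT libraries after 24 h of Dex. It was lower in KO than in WT in the mean of each of the 7 treatments but was not lost, and whether its counted reads lie outside the deleted part is not given in the sources used here. Replicate 2 of the KO vehicle 24 h group stood between Dex and vehicle libraries for Fkbp5. Fkbp5, an early glucocorticoid target, had 616 to 783 CPM in KO Dex 24 h libraries, 69.9 CPM in that library, and 14.2 and 16.9 CPM in the other two libraries of its group. Tsc22d3, another glucocorticoid target, had 1910.0 to 2319 CPM in Dex 24 h libraries of both genotypes, 529 CPM in that library, 311 and 187 CPM in the other KO and 360.4, 187 and 229 CPM in the WT vehicle 24 h libraries. It was thus also higher in replicate 1 of each genotype than in KO replicate 3 and WT replicates 2 and 3. Counts at 24 h are also given without KO replicate 2. The macrophage markers Adgre1, Csf1r and Cd68 were high in every library, with Csf1r at 1216 CPM or more and Adgre1 lowest in Dex 24 h libraries (1321 to 1660 CPM). All 10 of 12 listed macrophage markers in the table summed to 22890 to 28020 CPM in untreated libraries. Their sum was 31990 to 41210 CPM in vehicle 24 h and 35420 to 43390 CPM in Dex 24 h libraries. Of markers of other cells, 7 of 12 listed for monocytes and granulocytes were in the table, with a summed level of 75.3 to 214 CPM. Their sum was 75.3 to 130 CPM in Dex 8 h, 116 to 186 in vehicle 8 h and 124 to 214 in untreated libraries. The 4 other lists are given by treatment. The 6 of 9 stromal markers summed to 17.0 to 90.4 CPM in Dex 24 h, 8.57 to 32.7 in vehicle 24 h and 3.93 to 11.4 in untreated libraries. The 3 of 7 dendritic cell markers summed to 4.62 to 6.26 CPM in Dex 8 h and 0.943 to 2.20 CPM in vehicle 8 h libraries. Cd4, the only 1 of 9 lymphoid markers in the table, had 1.68 to 6.23 CPM in Dex 24 h and 7.74 to 14.3 CPM in vehicle 24 h libraries. Pf4, the only 1 of 7 erythroid and megakaryocyte markers in the table, had 327 to 505.1 CPM in Dex 24 h and 255 to 467 CPM in vehicle 24 h libraries, and these overlapped. The part of these markers in the results was not tested.

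Levels are compared between genes only as CPM per kilobase of transcript, and within a gene as CPM. The mt- genes lay between 74.3 CPM per kilobase (mt-Nd4l, a complex I subunit) and 1851 (mt-Co3, a core subunit of complex IV), with a median of 439. The nuclear members lay between 2.39 CPM per kilobase (Cox6a2) and 347 (Atp5b, the catalytic beta subunit of complex V), with a median of 75.8. By complex, the median nuclear level was 183 CPM per kilobase for complex IV, 163 for V, 139 for II, 111 for III, 68.2 for I and 9.08 for the complex I assembly factors. Assembly factors are thus the scarcest class, as 8 genes between 5.58 and 14.2 CPM per kilobase. All mt- genes together took 0.553 to 1.12% of a library's counts and the nuclear members 0.669 to 0.947%. In bulk RNA, fewer cells of a type and less RNA per cell cannot be told apart.

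The nuclear members rose and fell together between replicates of the same group. For each library, the mean log2 CPM of the 88 genes was taken as a deviation from its group's mean. Over 42 libraries this deviation had r = 0.912 (Spearman's rho 0.893) with the same deviation of 413 genes outside the members whose transcripts are as short (782 bases or less, the median length of the nuclear members, against a median of 2696 for all genes). For the mt- genes the value was 0.361 (rho 0.307). The nuclear subunits of complex I moved in the same way as those of complex II (r = 0.873), III (0.954), IV (0.986) and V (0.988). The mean nuclear level was lowest in replicate 3 of every group except WT untreated (replicate 1) and KO and WT vehicle 2 h (replicate 2). Replicates 1, 2 and 3 stood at 0.015, 0.075 and -0.318 in WT Dex 24 h, and at -0.034, 0.098 and -0.046 in KO Dex 24 h. The fit behind the tests below has no term for the replicate number, so this shared part stays in its error. These values are descriptions over libraries that share a preparation and a scaling. Short transcripts thus differ between replicates in common, and the spread of the nuclear members (median SD within a group 0.172 on the log2 scale, against 0.147 for all genes) holds that shared part.

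**Figure D1:**
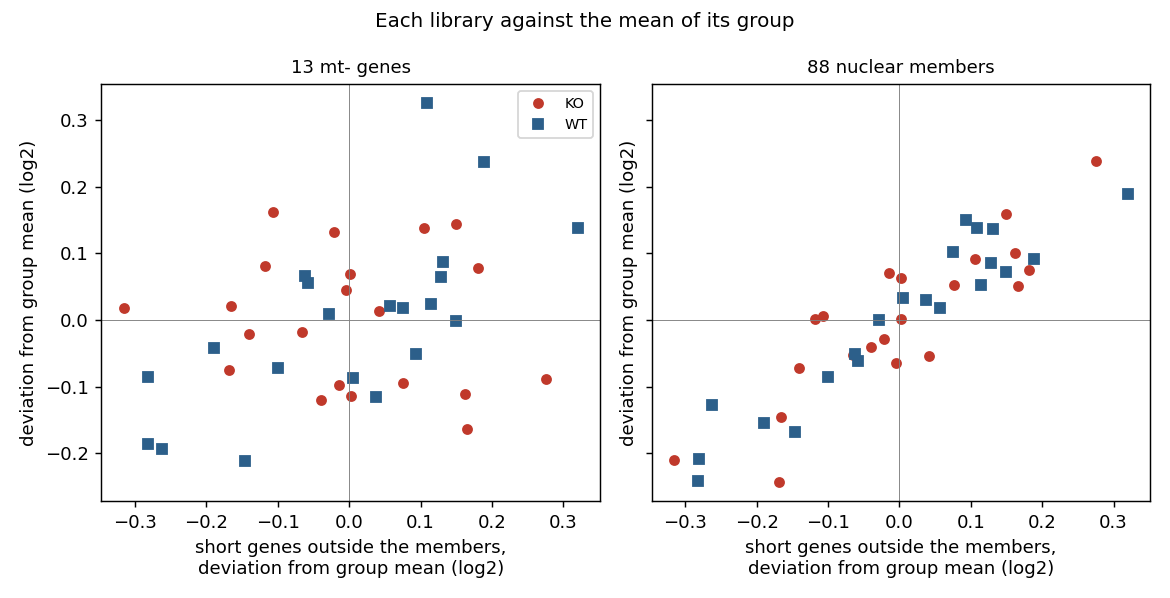
Deviation of each of the 42 libraries from the mean of its group, on the log2 scale, for the 13 mt- genes (left) and the 88 nuclear members (right) on the y axis, against the same deviation of 413 short genes outside the members on the x axis; circles are KO and squares WT libraries. The nuclear members follow the short genes closely (r = 0.912) and the mt- genes loosely (r = 0.361).

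With vehicle for 24 h against untreated, the mitochondrially encoded RNAs were higher as a set while the nuclear members were not. By edgeR's quasi-likelihood test with Benjamini-Hochberg adjustment over all 11160 genes, averaged over KO and WT, 11 of 13 mt- genes passed an adjusted p of 0.05, all of them higher (84.6%), against 31.0% of all genes in either direction and 15.6% higher. The median change of the 13 was 0.43 on the log2 scale (range 0.30 to 0.59), against -0.09 for the nuclear members and 0.00 for all genes. Of the 88 nuclear members, 10 were called (11.4%), all lower, as were 15.4% of all genes. The 12 libraries of this comparison include the KO vehicle 24 h library that stood apart, and without it 11 mt- and 7 nuclear members were called. With a covariate for short transcripts, 12 mt- genes (92.3%, all higher) and 18 nuclear members (20.5%, 5 higher, 13 lower) were called. The share of all genes was then 35.4%. This alternative, chosen after seeing the data, takes the mean of these 413 genes into the fit. Vehicle and time in culture cannot be told apart in this comparison.

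mt-Cytb, the only mitochondrially encoded subunit of complex III, had the largest change of the 13. It had 777, 897 and 899 CPM in KO vehicle 24 h and 798, 1014 and 781 CPM in WT vehicle 24 h libraries, against 505, 634 and 592 CPM in KO untreated and 569.6, 565 and 576 CPM in WT untreated libraries. Every vehicle 24 h library was above every untreated one, and the change was 0.59 ± 0.08 (log2 ± SE, adjusted p = 8.65e-07). mt-Nd5, a proton-pumping subunit of complex I, had 424, 467 and 468 CPM in KO and 424, 499.9 and 424 CPM in WT vehicle 24 h libraries, against 321, 309.6 and 312 CPM in KO and 290.1, 324 and 298 CPM in WT untreated libraries. Its groups did not overlap either, with a change of 0.55 ± 0.05 (adjusted p = 2.53e-10). mt-Nd6, which lies on the other strand, changed by 0.54 ± 0.10 (adjusted p = 0.000144). It had 154 to 231 CPM in vehicle 24 h (median 181) and 107 to 139 CPM in untreated libraries (median 128). From which strand its counted reads came is not given in the sources used here.

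Among the other complex I genes, mt-Nd1 rose by 0.54, mt-Nd2 by 0.51, mt-Nd4 by 0.48 and mt-Nd4l by 0.43. The complex V genes mt-Atp8 and mt-Atp6 rose by 0.42 and 0.37, and the complex IV genes mt-Co3 and mt-Co2 by 0.31 and 0.30. Groups of 6 vehicle and 6 untreated libraries did not overlap for mt-Cytb, mt-Nd1, mt-Nd4, mt-Nd4l, mt-Nd5, mt-Nd6 and mt-Atp8. The share of all genes without such overlap is not given here, so this is no trait particular to mt- genes. The 2 genes not called had estimates of the same size with wide errors: mt-Nd3 changed by 0.40 ± 0.19 (adjusted p = 0.119) and mt-Co1, the catalytic subunit of complex IV, by 0.42 ± 0.24 (adjusted p = 0.184). mt-Co1 had 668 CPM in KO untreated replicate 1, 419.9 in KO Dex 2 h replicate 1 and 984 in KO Dex 24 h replicate 2, and 1514 to 3247 CPM in the other 39 libraries. The part of these 3 libraries in its error was not tested. Without WT vehicle 24 h replicate 2, mt-Co2 and mt-Co3 lost their calls and 9 mt- genes were called.

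**Figure D2:**
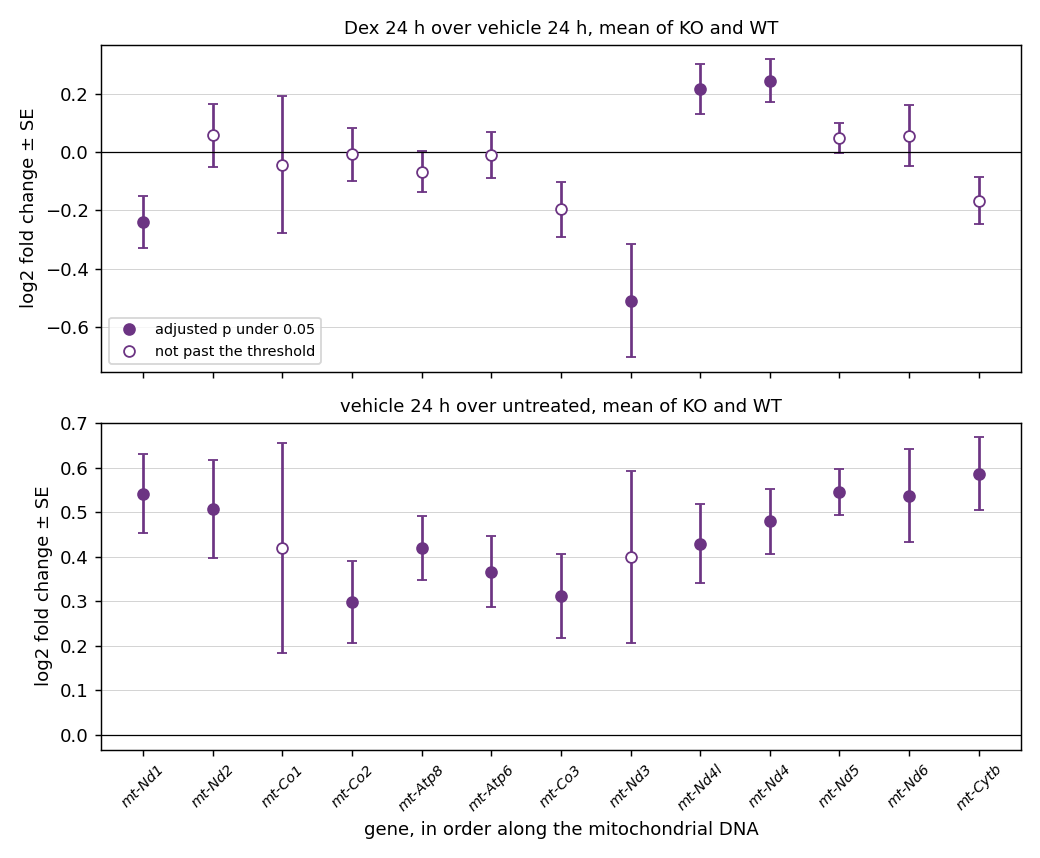
Log2 fold change with its SE for the 13 mt- genes, ordered along the mitochondrial DNA, for Dex 24 h over vehicle 24 h (top) and vehicle 24 h over untreated (bottom), each averaged over KO and WT; filled points passed an adjusted p of 0.05. In the bottom panel all 13 points lie between 0.30 and 0.59, while in the top panel they scatter on both sides of 0.

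At the earlier times the changes were smaller. With vehicle for 2 h, 0 of 13 mt- genes and 0 of 88 nuclear members were called (13.8% of all genes were). At 2 h, 1 mt- gene had an unadjusted p under 0.05, and DESeq2 called 1, mt-Nd5 (0.15, adjusted p = 0.0364). At 8 h, when 18.2% of all genes were called, mt-Nd5 (0.19 ± 0.05, adjusted p = 0.00758) and mt-Cytb (0.23 ± 0.08, adjusted p = 0.0498) were higher, and the median of the 13 was 0.12. The call of mt-Cytb at 8 h held in 3 of 12 fits that each left out 1 library. The mean share of counts from the 13 genes was 0.667% in KO untreated, 0.684% in KO vehicle 2 h, 0.746% in KO vehicle 8 h and 0.912% in KO vehicle 24 h libraries. In WT the same shares were 0.690% untreated, 0.764% at 2 h, 0.816% at 8 h and 0.884% at 24 h. The SDs at 24 h (0.0742 percentage points in KO and 0.146 in WT) were as large as the step between neighbouring times in WT, so neighbours in that order do not differ beyond their spread there.

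**Figure D3:**
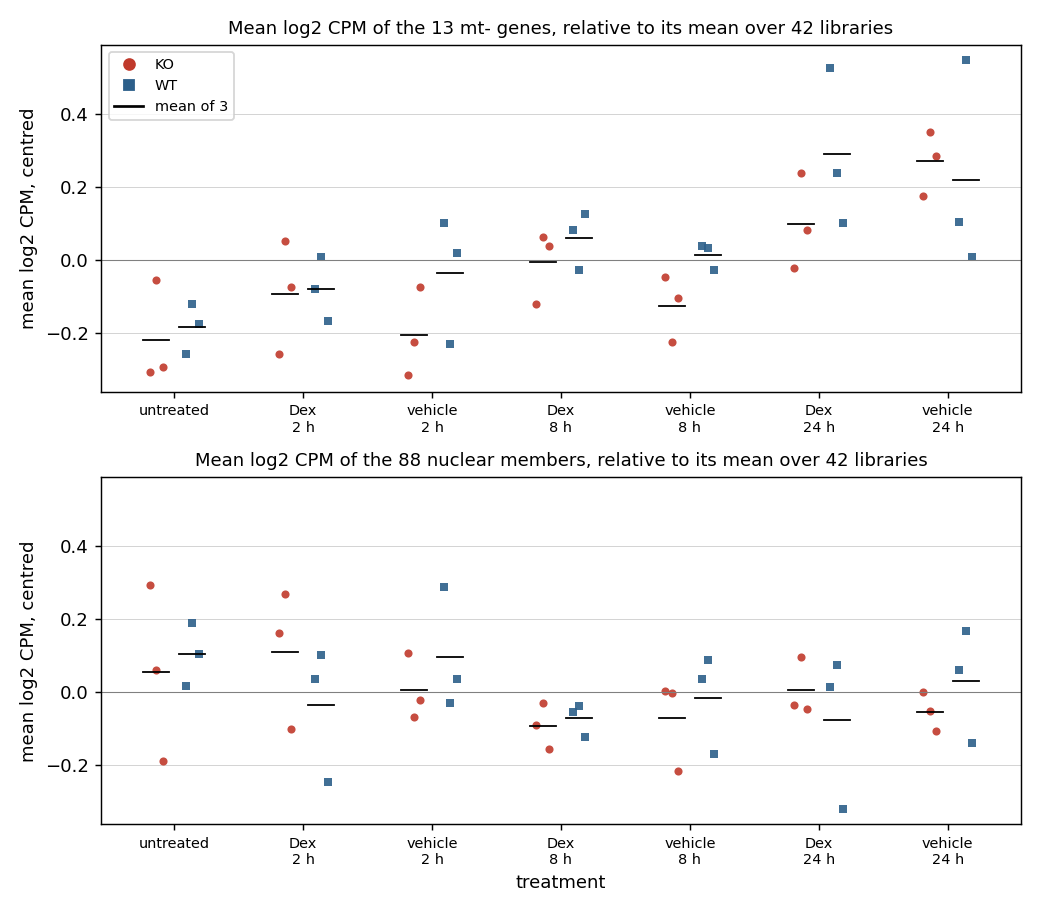
Mean log2 CPM of the 13 mt- genes (top) and of the 88 nuclear members (bottom) in each library, each centred on its mean over 42 libraries, by treatment on the x axis; circles are KO, squares WT libraries and black lines the mean of 3. The mt- genes lie at -0.306 to -0.055 in the untreated libraries and at 0.008 to 0.546 with vehicle for 24 h. The nuclear members lie above 0 in WT untreated libraries (0.018 to 0.19). They lie below 0 in Dex 8 h libraries (-0.156 to -0.028 in KO, -0.122 to -0.037 in WT) and at -0.107 to 0.0 in KO vehicle 24 h. In every other group they lie on both sides of 0.

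Dex changed few of the mt- genes, and in both directions. At 2 h, 0 of 13 were called and 0 had an unadjusted p under 0.05, when 14.5% of all genes were called. At 8 h, 2 of 13 were called (15.4%, against 52.2% of all genes), the overlapping pair mt-Atp8 and mt-Atp6, which encode membrane subunits of complex V. mt-Atp8 had 142, 156 and 161 CPM in KO Dex 8 h and 152, 145 and 172 CPM in WT Dex 8 h libraries, against 128, 128 and 134 CPM in KO and 141, 135 and 138 CPM in WT vehicle 8 h libraries. The groups did not overlap, and the change was 0.21 ± 0.07 (adjusted p = 0.0139). mt-Atp6 changed by 0.21 ± 0.08 (adjusted p = 0.0278). Without WT Dex 8 h replicate 3, neither passed, and without KO vehicle 8 h replicate 2, WT vehicle 8 h replicate 2, KO Dex 8 h replicate 2 or KO Dex 8 h replicate 3, 1 did.

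At 24 h of Dex, 4 of 13 mt- genes were called (30.8%, against 53.6% of all genes), and they split within complex I. mt-Nd4 (0.25 ± 0.07, adjusted p = 0.00508) and mt-Nd4l (0.22 ± 0.09, adjusted p = 0.0339), the pair with the shared 7 bases, were higher, while mt-Nd1 (-0.24 ± 0.09, adjusted p = 0.0227) and mt-Nd3 (-0.51 ± 0.19, adjusted p = 0.0259) were lower. mt-Nd4 had 438 to 576 CPM in Dex 24 h (median 519.9) and 371 to 499 CPM in vehicle 24 h libraries (median 443), and the groups overlapped. mt-Nd1 had 362 to 515 CPM in Dex 24 h (median 444) and 432 to 664 CPM in vehicle 24 h libraries (median 498). These calls rest on single libraries: without KO vehicle 24 h replicate 2, or without WT Dex 24 h replicate 3, 1 mt- gene was called, and without WT vehicle 24 h replicate 2 or KO Dex 24 h replicate 1, 2 were. Within WT alone, mt-Nd4 and mt-Nd4l were called, and within KO alone 0 of 13. The KO count was also 0 without KO vehicle 24 h replicate 2, but 2 without KO vehicle 24 h replicate 1, 5 without KO Dex 24 h replicate 2, 2 with DESeq2 and 3 with the block.

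The nuclear members changed by small amounts with Dex, and in both directions. After 2 h, 0 of 88 were called by edgeR's quasi-likelihood test, when 14.5% of all genes were; 3 had an unadjusted p under 0.05, and DESeq2 also called 0 in the mean of the genotypes. After 8 h, 17 of 88 were called (19.3%), 7 higher and 10 lower, against 52.2% of all genes (27.5% higher, 24.7% lower). After 24 h, 16 were called (18.2%), 10 higher and 6 lower, against 53.6% of all genes (26.8% higher, 26.8% lower). The median size of the change was 0.08 on the log2 scale at 8 h and 0.10 at 24 h, against 0.21 at each time for all genes, with a median SE of 0.09 for the nuclear members and 0.08 for all genes. The 413 short genes outside the members had a median size of 0.16 at each time with a median SE of 0.11, and 30.0% of them were called at 8 h and 34.1% at 24 h.

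These counts moved when a covariate for short transcripts was added. With the mean of the 413 short genes as a covariate in the same fit, the median SE of the nuclear members fell to 0.06. Then 38 nuclear members were called at 8 h, 8 higher and 30 lower (43.2%, against 57.7% of all genes), and 34 at 24 h, 12 higher and 22 lower (38.6%, against 58.8%). All 17 and all 16 earlier calls were among them in the same direction. With it, the calls at 8 h held 9 of 16 complex V members, all lower, and 14 of 36 complex I subunits, 4 higher and 10 lower. At 24 h, 7 complex I subunits were higher and 6 lower, and 1 complex IV member was higher and 7 lower. Of complex V members, 0 were higher and 5 lower at 24 h. These counts include the earlier calls. The covariate can shift estimates as well as SEs, since its own mean differed between groups. At 8 h it was -0.021 with Dex and -0.097 with vehicle in KO, and -0.027 and -0.058 in WT. At 24 h it was 0.037 and -0.094 in KO, and 0.045 and 0.058 in WT. The median change of the nuclear members in that fit was -0.07 at 8 h and -0.05 at 24 h. The part of such shifts in the counts was not tested. Beyond 1.5-fold, the only nuclear member called at 8 h was Cox6a2, and at 24 h Cox6a2 and Cox7a1.

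**Figure D4:**
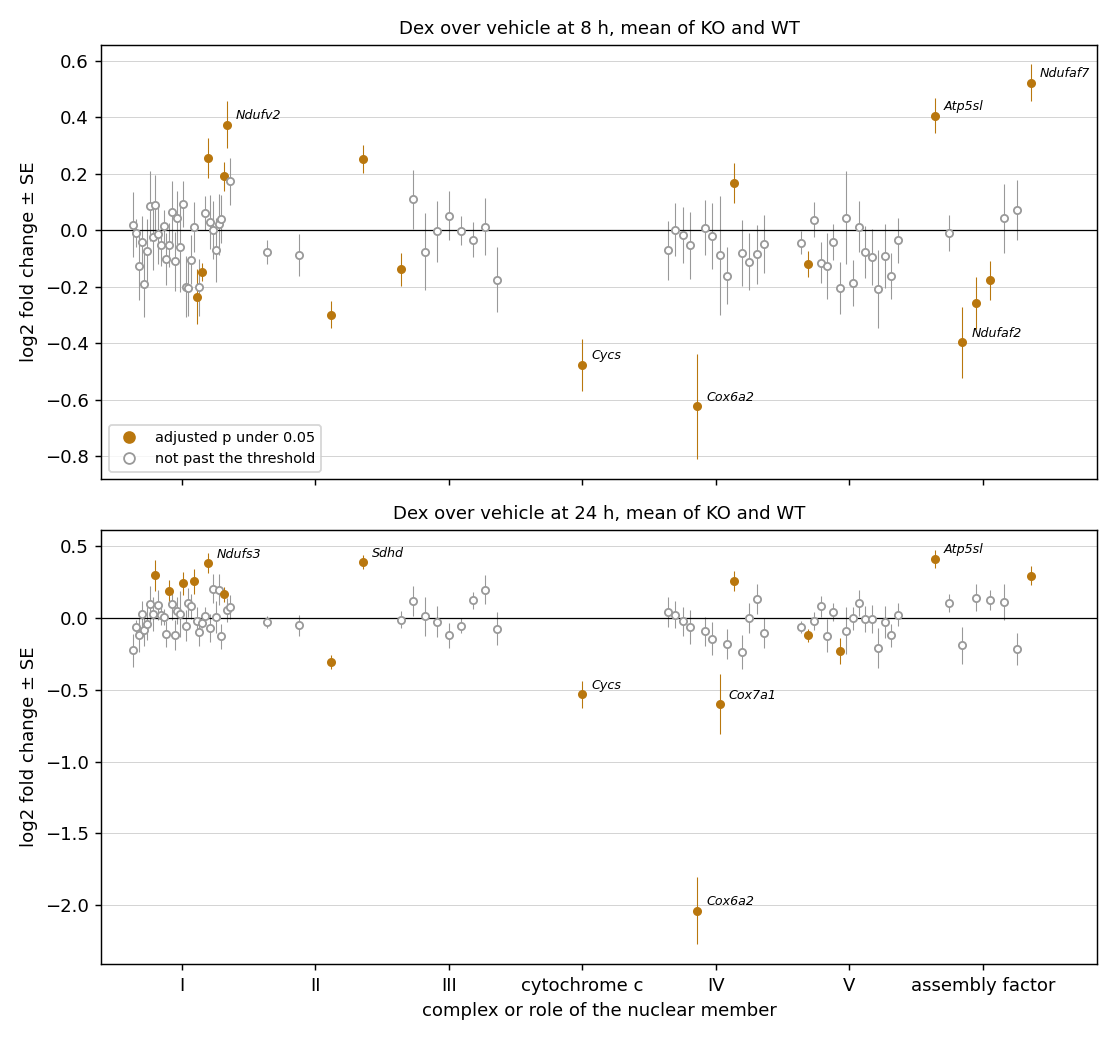
Log2 fold change with its SE of each of the 88 nuclear members by complex or role, for Dex over vehicle at 8 h (top) and 24 h (bottom), averaged over KO and WT; filled points passed an adjusted p of 0.05, and the called members that changed most are named. At 8 h called genes lie on both sides of 0 in complexes I, II and IV and among the assembly factors, at 24 h in complexes II and IV, and Cox6a2 at 24 h (-2.04) lies below all others.

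Within complex II, succinate dehydrogenase, the called subunits went in opposite directions. In this enzyme Sdha carries the flavin, Sdhb the iron-sulfur clusters, and Sdhc (chr1:171127165-171150603, minus strand, GRCm38) and Sdhd (chr9:50596357-50603812, minus strand) anchor it in the membrane and bind ubiquinone. With Dex the anchor Sdhd was higher and its partner Sdhc lower, in each genotype and at both 8 and 24 h. Sdhd had 233, 251 and 239.9 CPM in KO Dex 24 h and 242, 262 and 224 CPM in WT Dex 24 h libraries, against 185, 195 and 173 CPM in KO and 192, 187 and 178 CPM in WT vehicle 24 h libraries. Every Dex library was above every vehicle one. The change was 0.39 ± 0.05 (1.31-fold, adjusted p = 3.61e-08), with 0.39 in KO and 0.39 in WT. At 8 h it was 0.25 ± 0.05 (adjusted p = 5.36e-05), also without overlap.

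Sdhc had 119.9, 119.7 and 116 CPM in KO Dex 24 h and 116, 115 and 106 CPM in WT Dex 24 h libraries, against 144, 132 and 142 CPM in KO and 151, 153 and 134 CPM in WT vehicle 24 h libraries. Every Dex library was below every vehicle one, and the change was -0.31 ± 0.05 (0.81-fold, adjusted p = 2.08e-06), with -0.23 in KO and -0.38 in WT. At 8 h it was -0.30 ± 0.05 (adjusted p = 2.91e-06). The calls of Sdhd and Sdhc for Dex at 8 and 24 h held in all 12 fits of each time that left out 1 library, KO vehicle 24 h replicate 2 among them. Neither catalytic subunit passed without the covariate for short transcripts. Sdhb changed by -0.09 ± 0.07 at 8 h and -0.05 ± 0.07 at 24 h, and Sdha by -0.08 ± 0.04 and -0.03 ± 0.04. With that covariate, 1 of the 4 complex II members was higher and 2 were lower at 8 h, so a catalytic subunit was then called lower. At 24 h, 1 was higher and 1 lower. Of all genes, 57.7% were then called at 8 h and 58.8% at 24 h. Without the covariate, Sdha was lower with vehicle for 24 h than untreated (-0.28 ± 0.04, adjusted p = 5.94e-06). It had 329 to 366 CPM in vehicle 24 h (median 341) and 380.1 to 445 CPM in untreated libraries (median 410.2), without overlap. Sdhc was lower in that comparison too (-0.19 ± 0.05, adjusted p = 0.00311), and Sdhd was not called (0.01 ± 0.05).

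**Figure D5:**
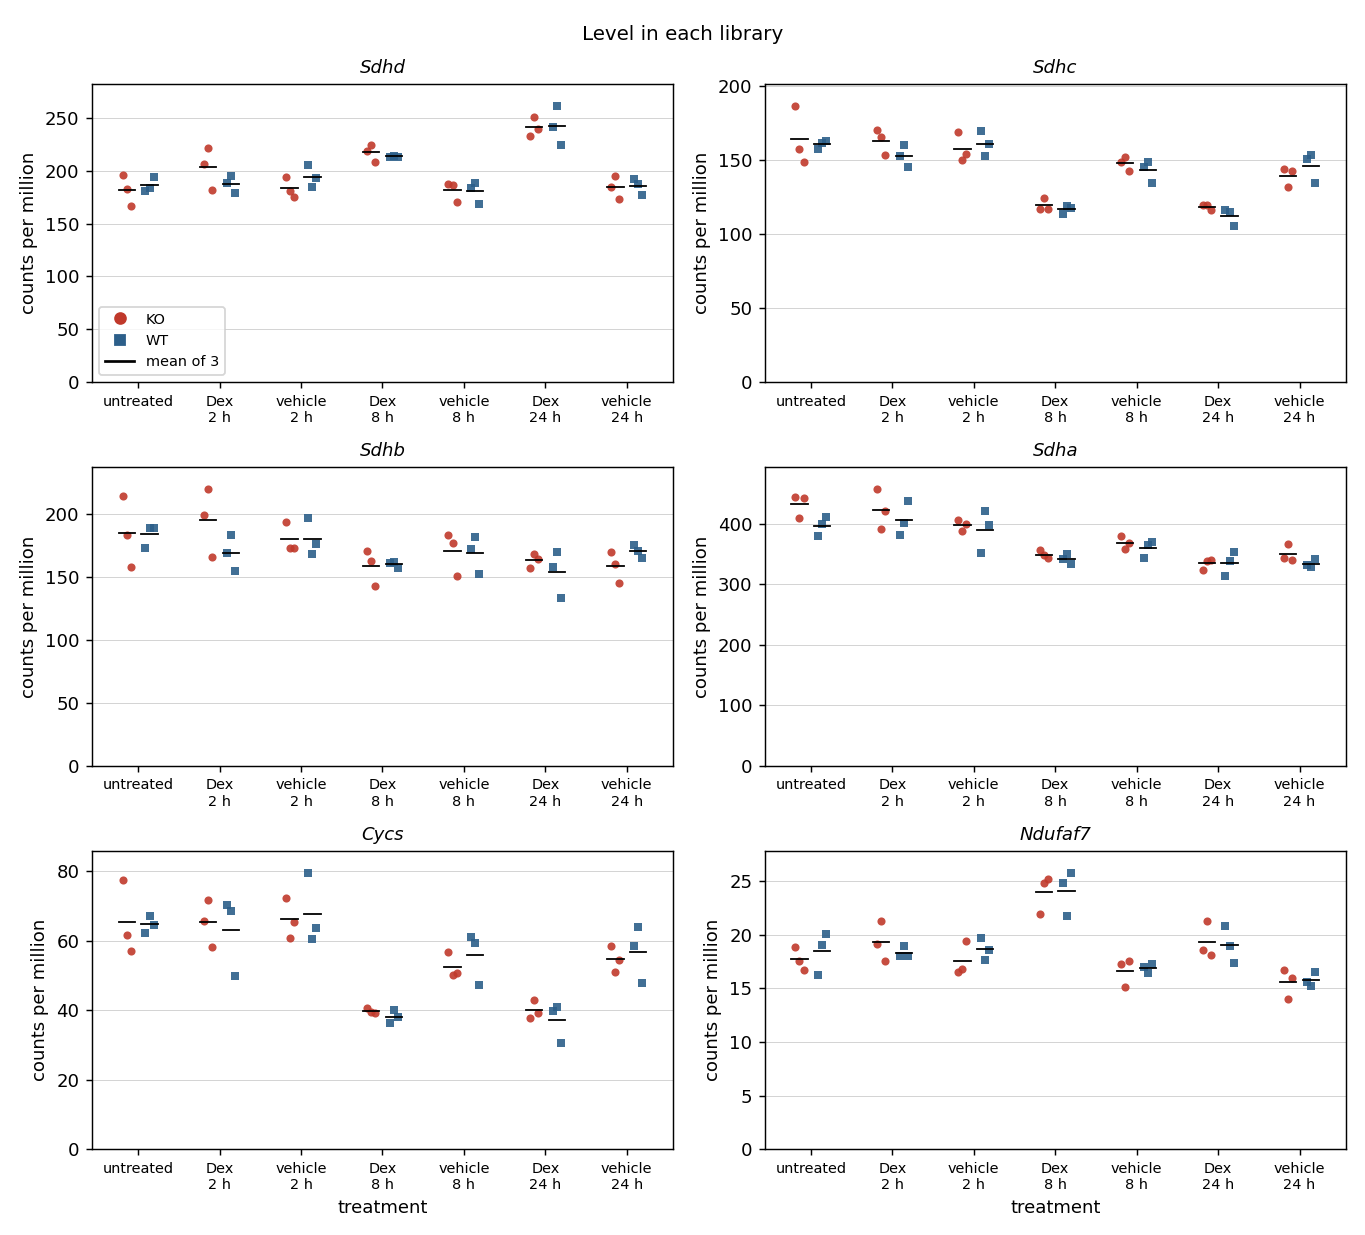
CPM in each of the 42 libraries for the 4 subunits of complex II, for Cycs and for the assembly factor Ndufaf7, by treatment on the x axis, with circles for KO, squares for WT and black lines for the mean of 3; every y axis starts at 0. Sdhd is highest and Sdhc lowest in the Dex 8 h and Dex 24 h groups, in KO and in WT.

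Cycs encodes cytochrome c, which carries electrons to complex IV and which, once released into the cytosol, starts the caspase cascade. It lies at chr6:50562563-50566538 on the minus strand, and processed copies of it in the genome could have shared its reads. It was lower with Dex in each genotype. At 8 h it had 40.6, 39.4 and 39.1 CPM in KO and 36.4, 39.9 and 37.9 CPM in WT Dex libraries, against 56.7, 50.1 and 50.6 CPM in KO and 61.1, 59.2 and 47.1 CPM in WT vehicle libraries. The groups did not overlap, and the change was -0.48 ± 0.09 (0.72-fold, adjusted p = 4.83e-05). At 24 h it had 37.7, 42.9 and 39.2 CPM in KO and 39.8, 40.9 and 30.5 CPM in WT Dex libraries, against 58.4, 50.9 and 54.4 CPM in KO and 58.4, 63.9 and 47.8 CPM in WT vehicle libraries. The change was -0.53 ± 0.09 (0.69-fold, adjusted p = 1.06e-05), and both calls held whichever library was left out. Cyc1, the cytochrome c1 of complex III from which Cycs takes its electron, was lower at 8 h (-0.14 ± 0.06, adjusted p = 0.0437), a call that held in 5 of 12 such fits.

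The promoters of Sdhd and Cycs are shown because the RNAs moved with Dex in opposite directions, each without overlap between the groups. Each run is the 250 bases before the start of the gene in RefSeq's promoters for GRCm38.p6, at chr9:50603850-50604099 for Sdhd and chr6:50566570-50566819 for Cycs, both on the minus strand, with capitals for a motif match.
Sdhd: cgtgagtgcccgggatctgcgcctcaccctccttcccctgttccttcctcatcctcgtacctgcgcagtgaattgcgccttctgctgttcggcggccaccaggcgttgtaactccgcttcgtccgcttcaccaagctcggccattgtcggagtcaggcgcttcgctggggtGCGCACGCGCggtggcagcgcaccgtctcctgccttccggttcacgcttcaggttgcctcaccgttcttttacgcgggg
Cycs: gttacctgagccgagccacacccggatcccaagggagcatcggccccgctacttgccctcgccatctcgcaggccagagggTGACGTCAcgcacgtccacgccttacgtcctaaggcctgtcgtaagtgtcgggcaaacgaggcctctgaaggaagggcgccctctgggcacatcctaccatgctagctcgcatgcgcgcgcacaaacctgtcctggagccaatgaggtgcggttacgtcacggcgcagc
The capitals are, in Sdhd, a match to the motif of NRF1, a regulator of respiratory genes (GCGCA and GCGC with 1 free base between them). In Cycs they are TGACGTCA, the cyclic AMP response element (CRE). Only letters were matched, and binding was not tested. The 4 motifs named here were searched on both strands in the promoters of the 74 nuclear members that the table holds. The NRF1 motif was in 13 of them (17.57%), against 3.86% of 27025 promoters of the same length, and TGACGTCA was in 5 (6.76%), against 1.62%. These 27025 promoters were matched to the members neither for their content of G and C nor for expression. CCGGAAGNG, for GABP and other ETS factors, was in 3 (4.05%), against 3.03%. The glucocorticoid response element (GRE), searched as GNACA and TGTNC with 3 free bases between them, after 1 further free base, was in 0, against 0.38%, which says only that these letters are not in these windows.

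In complex I, called subunits of the electron input arm went in different directions at 8 h. Ndufv2, an iron-sulfur subunit of the module that binds NADH, had 102 to 115 CPM in Dex 8 h (median 110.1) and 75.6 to 93.7 CPM in vehicle 8 h libraries (median 85.8). It rose by 0.37 ± 0.08 (adjusted p = 0.000294). Ndufv1, which holds the flavin of the same module, rose by 0.19 ± 0.05 (adjusted p = 0.00206), with 59.6 to 66.7 CPM in Dex 8 h and 50.9 to 58.8 CPM in vehicle 8 h libraries. Ndufs1, the module's largest iron-sulfur subunit, was lower by a small and even amount, with 89.8 to 94.3 CPM in Dex 8 h (median 92.0) and 99.7 to 107 CPM in vehicle 8 h libraries (median 101), a change of -0.15 ± 0.03 (adjusted p = 0.000222). For all 3 genes the groups did not overlap and the call held in each of the 12 fits that left out 1 library.

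Ndufs3, of the module that reduces ubiquinone, was higher at 8 h (0.26 ± 0.07, adjusted p = 0.00257) and at 24 h (0.38 ± 0.07, adjusted p = 2.16e-05), when it had 69.2 to 81.5 CPM in Dex (median 76.1) and 51.0 to 61.8 CPM in vehicle libraries (median 59.4). At 24 h, 0 of 36 complex I subunits were lower, but 6 were with the covariate for short transcripts, which called 7 higher. Without it, Ndufv1 (0.16 ± 0.05, adjusted p = 0.0076) and the supernumerary subunits Ndufa6 (0.30), Ndufb9 (0.26), Ndufb5 (0.24) and Ndufb10 (0.19) were higher as well. Of these, Ndufb10 kept its call in 2 of 12 fits that left out 1 library, Ndufa6 in 7, Ndufb9 in 10 and Ndufb5 in 11. Ndufc1 (-0.24 ± 0.10, adjusted p = 0.0406) was lower at 8 h, in 5 of 12 such fits. In the annotation, Ndufs3 overlaps Kbtbd4, Ndufs1 overlaps Eef1b2 and Ndufb5 overlaps Mrpl47 on the other strand. All 3 neighbours are in the table, and the sources used here do not say if reads were assigned by strand, so reads of such pairs cannot be told apart.

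The assembly factors of complex I, which join its parts and do not stay in it, were called at 8 h for 5 of 8 genes (2 higher, 3 lower), when 52.2% of all genes were called, and at 24 h for 2 of 8 (both higher), when 53.6% were. The covariate for short transcripts gave 2 higher and 2 lower at 24 h, when 58.8% of all genes were called. Ndufaf7, a mitochondrial methyltransferase, had 21.9, 24.8 and 25.2 CPM in KO and 24.8, 21.7 and 25.7 CPM in WT Dex 8 h libraries, against 17.2, 15.1 and 17.5 CPM in KO and 17.0, 16.4 and 17.2 CPM in WT vehicle 8 h libraries. It rose by 0.52 ± 0.07 at 8 h (1.44-fold, adjusted p = 2.99e-08) and by 0.29 ± 0.07 at 24 h (adjusted p = 0.000339), without overlap at either time. Atp5sl, now named Dmac2 in the annotation and an assembly factor of the membrane arm of complex I in spite of its symbol, rose by 0.41 ± 0.06 at each of the times (adjusted p = 1.08e-06 at 8 h and 9.58e-07 at 24 h). It had 21.9 to 26.6 CPM in Dex 8 h (median 25.4) and 17.6 to 20.1 CPM in vehicle 8 h libraries (median 19.0). Both genes were called in KO and in WT at 8 and 24 h.

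The other called assembly factors were lower at 8 h. Ndufaf2, which acts late in assembly, changed by -0.40 ± 0.13 (adjusted p = 0.00844), with 6.04 to 8.05 CPM in Dex and 8.24 to 10.4 CPM in vehicle libraries. Ndufaf3 (-0.26 ± 0.09, adjusted p = 0.0184) and Ndufaf4 (-0.18 ± 0.07, adjusted p = 0.0311), partners in building the ubiquinone module, kept their calls in 9 and 6 of 12 fits that left out 1 library. At 24 h the estimates were 0.14 ± 0.09 for Ndufaf3 and 0.13 ± 0.07 for Ndufaf4, neither past the threshold. Ndufaf2 overlaps Smim15 and Ndufaf3 overlaps Impdh2 on the other strand, and both neighbours are in the table.

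Without the covariate for short transcripts, the complex IV changes past the threshold were in a supercomplex factor and in isoforms typical of heart and skeletal muscle. With that covariate, 1 of 14 members was higher at each time, 3 were lower at 8 h and 7 at 24 h. Of all genes, 57.7% were then called at 8 h and 58.8% at 24 h. The muscle isoforms were scarce here. Cox6a2, the muscle isoform, averaged 0.290 CPM in Dex 24 h and 1.18 CPM in vehicle 24 h libraries. Its counts were 9, 11 and 8 in KO and 7, 8 and 3 in WT Dex 24 h libraries, against 29, 26 and 20 in KO and 54, 37 and 17 in WT vehicle 24 h libraries. Relative to library size every Dex 24 h library was below every vehicle 24 h one. The change was -2.04 ± 0.24 (adjusted p = 5.48e-09) at 24 h and -0.62 ± 0.19 (adjusted p = 0.00552) at 8 h, and it was lower with vehicle for 24 h than untreated as well (-1.09 ± 0.18, adjusted p = 1.88e-05). The liver-type isoform Cox6a1, with 2355 to 5126 counts in Dex 24 h libraries, changed by -0.06 ± 0.12 at 24 h (adjusted p = 0.674). Itgad overlaps Cox6a2 on the other strand and is no row of the table, so reads from it cannot be told apart at this low level.

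Cox7a1, the muscle isoform of another subunit, averaged 1.17 CPM in Dex 24 h and 1.82 CPM in vehicle 24 h libraries (-0.60 ± 0.21, adjusted p = 0.0167), a call lost without WT Dex 24 h replicate 3. Its counterpart Cox7a2 changed by -0.18 ± 0.10 (adjusted p = 0.133). Cox7a2l, which takes part in joining complexes III and IV into supercomplexes, was higher at 24 h (0.26 ± 0.07, adjusted p = 0.00281), with 79.6 to 94.9 CPM in Dex (median 92.1) and 68.9 to 82.1 CPM in vehicle libraries (median 75.5). At 8 h its value was 0.17 ± 0.07 (adjusted p = 0.0465), a call that held in 2 of 12 fits that left out 1 library and was lost with DESeq2.

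Complex III had 1 call at 8 h (Cyc1) and 0 at 24 h among 9 subunits, when 52.2% and 53.6% of all genes were called. The covariate for short transcripts gave 2 lower at 8 h and 1 higher at 24 h, when 57.7% and 58.8% of all genes were called. In complex V, Atp5b was lower by 0.12 at each time. It had 570 to 631 CPM in Dex 8 h (median 616) and 624 to 708 CPM in vehicle 8 h libraries (median 654), and the change was -0.12 ± 0.05 at 8 h (adjusted p = 0.0259) and -0.12 ± 0.05 at 24 h (adjusted p = 0.0256). The 3 genes Atp5g1, Atp5g2 and Atp5g3 encode the same mature subunit of the rotor ring. Atp5g1 was called at 24 h (-0.23 ± 0.09, adjusted p = 0.0313, in 7 of 12 fits that left out 1 library). Atp5g2 changed by -0.09 ± 0.16 and Atp5g3 by -0.00 ± 0.08 at 24 h. At 8 h, Atp5g1 (-0.20 ± 0.09, adjusted p = 0.058) and Atp5g3 (-0.19 ± 0.08, adjusted p = 0.0544) lay just outside the threshold, and DESeq2 called both.

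The nuclear members called at 8 h and at 24 h overlapped in 10 genes, all in the same direction at each time, and 59 of 88 were called in none of the comparisons made. The shares of all genes called at both times, or in no comparison, are not given here, so these counts describe the members only. The Dex effects at 8 and 24 h come from separate vehicle and Dex libraries. Without KO vehicle 8 h replicate 2 or KO Dex 8 h replicate 3, 11 nuclear members were called at 8 h, and without KO vehicle 24 h replicate 2, 15 were called at 24 h. Within the genotypes, 11 were called in KO (12.5%, against 38.5% of all genes) and 8 in WT (9.09%, against 37.0%) at 8 h, and 12 in KO (13.6%, against 38.3%) and 10 in WT (11.4%, against 41.7%) at 24 h. Where replicate numbers paired the libraries, a fit with the replicate as a block called 13 in WT at 8 h (5 higher, 8 lower) and 19 in WT at 24 h (7 higher, 12 lower). In KO at 24 h, 8 were called without KO vehicle 24 h replicate 2 or replicate 3 and 7 without KO Dex 24 h replicate 2, and in WT at 24 h, 6 without WT vehicle 24 h replicate 1. Of mt- genes, 0 were called in either genotype at 8 h (1 in KO with the block), and at 24 h 0 in KO and 2 in WT, with 0 in WT without WT vehicle 24 h replicate 3 or WT Dex 24 h replicate 1. At 2 h, 0 members were called in KO (10.4% of all genes) or in WT (9.02%). In KO at 2 h, DESeq2 and the block each called 1 nuclear member, and 4 were called without KO Dex 2 h replicate 3, 1 without KO vehicle 2 h replicate 1, and 1 mt- gene without KO vehicle 2 h replicate 3.

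The Dex effect differed between times for some of these genes. From 2 h to 8 h, 7 nuclear members were called for the difference, 4 higher and 3 lower (7.95%, against 31.0% of all genes), and 0 mt- genes. The Dex effect at 8 h minus that at 2 h was 0.47 for Ndufaf7, 0.38 for Atp5sl, 0.28 for Ndufs3 and 0.20 for Sdhd, and -0.41 for Cycs, -0.29 for Sdhc and -0.18 for Ndufs1. From 8 h to 24 h, 4 nuclear members (4.55%) and 1 mt- gene were called, against 25.9% of all genes. The assembly factors Ndufaf3 and Ndufaf4, lower with Dex at 8 h, had differences of 0.40 and 0.30, Ndufv2 had -0.32, Cox6a2 -1.41 and mt-Atp8 -0.28. Without KO vehicle 8 h replicate 2, 2 nuclear members were called in that comparison, and without KO vehicle 24 h replicate 2, 4 nuclear members and 0 mt- genes. The call of mt-Atp8 held in 9 of the 24 fits that left out 1 library.

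With vehicle for 24 h against untreated, the 10 lower nuclear members were Cox6a2, Ndufaf5, Sdha, Atp5o, Ndufs8, Ndufaf7, Atp5b, Sdhc, Ndufa9 and Ndufa10. Atp5b had 559 to 665 CPM in vehicle 24 h (median 637) and 669 to 782 CPM in untreated libraries (median 729), a change of -0.20 ± 0.05 (adjusted p = 0.000759) without overlap. Apart from Cox6a2 (-1.09), their changes lay between -0.36 (Ndufaf5) and -0.15 (Ndufa10). The median of the 88 was -0.09, against -0.05 for the 413 short genes. The count was 4 without KO untreated replicate 1, 5 without WT vehicle 24 h replicate 3, 6 without WT untreated replicate 2 or KO vehicle 24 h replicate 3, and 18 without KO untreated replicate 3. KO untreated replicates 1 and 3 were the highest and the lowest of their group in mean nuclear level (0.293 and -0.189 on the log2 scale) and in the level of short genes (0.28 and -0.164).

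At 8 h of vehicle, 6 nuclear members were called (6.82%, 1 higher and 5 lower), when 8.49% of all genes were higher and 9.66% lower. The median of the 88 was -0.12 and that of the 413 short genes -0.11. Cox6a2 (-0.69 ± 0.18, adjusted p = 0.00468), Cycs (-0.26 ± 0.09, adjusted p = 0.0418), Sdha (-0.19 ± 0.04, adjusted p = 0.00217), Sdhc (-0.16 ± 0.05, adjusted p = 0.0176) and Atp5b (-0.14 ± 0.05, adjusted p = 0.0286) were lower and Atp5sl (0.20 ± 0.06, adjusted p = 0.0242) was higher. The count was 2 without WT vehicle 8 h replicate 3, 3 without KO untreated replicate 1, WT untreated replicate 2 or KO vehicle 8 h replicate 3, and 13 without KO untreated replicate 3. Of mt- genes, 1 in place of 2 was called in 9 of the 12 fits that left out 1 library. The Dex and the vehicle comparisons at one time share the vehicle libraries, so their values for a gene are not independent of each other.

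No member was called between KO and WT cells. Averaged over the 4 conditions without Dex, 0 of 88 nuclear and 0 of 13 mt- genes were called by edgeR's quasi-likelihood test, when 0.224% of all genes were. Of the nuclear members 4 had an unadjusted p under 0.05, DESeq2 called 1, and 1 was called without WT vehicle 2 h replicate 2. The median difference, KO over WT, was -0.07 on the log2 scale for the nuclear members (range -0.30 to 0.06), -0.07 for the mt- genes and -0.07 for the 413 short genes, against 0.00 for all genes. Sdhd averaged 183 CPM in KO and 187 CPM in WT libraries of these conditions and differed by -0.03 (95% interval -0.10 to 0.04), and Sdhc averaged 152 CPM in KO and 153 CPM in WT libraries (-0.00, interval -0.07 to 0.06). In single conditions, 0 members were called untreated (0.0% of all genes), with vehicle for 2 h (0.00896%), 8 h (0.00896%) or 24 h (0.0%), or with Dex for 2 h (0.0%), 8 h (0.0%) or 24 h (0.0448%).

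For the difference of the Dex effect between the genotypes, likewise, no member was called. Averaged over the 3 times, 0 of 101 members and 0 of 11160 genes (0.0%) were called for the Dex effect in KO minus that in WT, as at each single time, with 2 nuclear members and 0 mt- genes at an unadjusted p under 0.05 and 0 members with DESeq2. The difference was 0.07 for Sdhd (95% interval -0.04 to 0.19), 0.08 for Sdhc (-0.02 to 0.19), 0.13 for Cycs (-0.07 to 0.34) and 0.07 for Ndufaf7 (-0.08 to 0.22). It was positive for 87 of 88 nuclear members, with a median of 0.15, against 0.14 for the 413 short genes, 0.03 for the mt- genes and -0.01 for all genes. The share of all genes with a positive value is not given here. The nuclear members moved together between libraries, so these 87 are not separate observations. With the short genes as a covariate the median of the nuclear members was 0.04, so the level of short transcripts in these libraries moved with it.

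Genes around the respiratory chain, in lists that leave out the members, were also counted by call. Among 21 genes of electron entry, uncoupling and nucleotide exchange, 14 were called at 8 h (66.7%, against 52.2% of all genes; 6 higher, 8 lower) and 9 at 24 h (42.9%, against 53.6%; 6 higher, 3 lower). Ucp2, a carrier of the mitochondrial inner membrane, averaged 2224 CPM in Dex 8 h and 889 CPM in vehicle 8 h libraries (1.32 ± 0.07, adjusted p = 1.92e-17). Sqrdl, which passes electrons from sulfide to ubiquinone, averaged 121 CPM in Dex 8 h and 58.2 CPM in vehicle 8 h libraries (1.05 ± 0.05, adjusted p = 1.88e-19), and Coq7, of ubiquinone synthesis, 9.40 CPM in Dex 8 h and 16.5 CPM in vehicle 8 h libraries (-0.81 ± 0.09, adjusted p = 1.51e-09). At 24 h the same 3 genes changed by 1.16, 0.65 and -0.68.

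Of 24 tricarboxylic acid cycle and pyruvate dehydrogenase genes other than Sdh, 13 were called at 8 h (54.2%, against 52.2% of all genes; 6 higher, 7 lower) and 11 at 24 h (45.8%, against 53.6%; 6 higher, 5 lower). Pdk2, a kinase that inhibits pyruvate dehydrogenase, averaged 29.0 CPM in Dex 8 h and 16.9 CPM in vehicle 8 h libraries (0.78 ± 0.09, adjusted p = 2.34e-09). Pdp1, a phosphatase that activates the same enzyme, averaged 48.0 CPM in Dex 8 h and 96.4 CPM in vehicle 8 h libraries (-1.01 ± 0.08, adjusted p = 3.31e-12). Of the isocitrate dehydrogenase subunits, Idh3g was higher at 8 h (0.58 ± 0.06, adjusted p = 8.08e-10) and at 24 h (0.44 ± 0.06), while Idh3a was lower at 24 h (-0.41 ± 0.07, adjusted p = 2.52e-06).

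Of 43 assembly factors of the complexes outside the Nduf symbols, 16 were called at each time (37.2%, against 52.2% of all genes at 8 h and 53.6% at 24 h), 6 higher and 10 lower at 8 h and 13 higher and 3 lower at 24 h. Sdhaf1, which helps insert the iron-sulfur clusters into Sdhb, averaged 8.40 CPM in Dex 24 h and 5.43 CPM in vehicle 24 h libraries (0.63 ± 0.12, adjusted p = 4.14e-05). Of 28 genes of mitochondrial DNA transcription, replication and RNA processing, 14 were called at 8 h (50.0%, near the share of all genes; 8 higher, 6 lower) and 9 at 24 h (32.1%; 7 higher, 2 lower). Trmt10c, a subunit of the enzyme that cuts tRNAs from mitochondrial precursors, was lower at 8 h (-0.49 ± 0.05, adjusted p = 2.21e-10), as was Fastkd3 (-0.64 ± 0.08, adjusted p = 1.01e-08). Of 13 regulators of mitochondrial gene expression and biogenesis, 7 were called at each time (53.8%, near the shares of all genes), with Sirt3, a mitochondrial deacetylase, higher at 8 h (0.86 ± 0.07, adjusted p = 1.4e-12).

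With vehicle for 24 h against untreated, when the mt- genes were higher, 8 of the 28 mitochondrial DNA expression genes were called (28.6%, against 31.0% of all genes; 3 higher and 5 lower). Grsf1, a mitochondrial RNA-binding protein, was higher (0.29 ± 0.06, adjusted p = 0.000209), as was the transcription factor Tfb2m (0.28 ± 0.06, adjusted p = 0.00072). Pnpt1, of the mitochondrial RNA degradation machinery, was lower (-0.41 ± 0.06, adjusted p = 1.75e-06). Of the 13 regulators, 3 were called, all lower (23.1%, against 31.0% of all genes), Nrf1 among them (-0.16 ± 0.05, adjusted p = 0.0185). Of the 43 other assembly factors, 12 were called (27.9%, against 31.0%), 1 higher and 11 lower.

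Over the 14 group means, the non-members whose log2 profile was most like the mean of the 88 nuclear members were Snrpd2 (Pearson's r = 0.940), Gabarap (0.938), Lamtor5 (0.937), Fis1 (0.936) and Coa3 (0.935). For the mean of the 13 mt- genes they were Smo (0.964), Atp6v0d2 (0.943), Dlg5 (0.933), Plekhb2 (0.932) and Gabarapl1 (0.928). The points share groups and scaling, and these values describe likeness over 14 means only.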

How the data were processed

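RNA was measured in 42 libraries, 3 in each of 14 groups. The deposited table holds expected counts for 11160 genes, which need not be whole (69.5% of 468720 values lay within 0.01 of a whole number). The tools fastp, HISAT2 and Salmon and the build GRCm38 are named, without versions or order, per the submitters' processing notes. The sources used here name no annotation and do not say if strand was used. The authors' deposited values were rounded to whole numbers, and no column was left unused (0).

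Counts were scaled by TMM (factors 0.950 to 1.04) and tested with edgeR 4.0.16 in R 4.3.3 by its quasi-likelihood test, with 14 group means in one model and Benjamini-Hochberg adjustment over all genes. A gene or list member is "called" at an adjusted p of 0.05. edgeR's filter on low counts removed 0 genes, and all 101 members passed it (lowest total over 42 libraries 1622 counts). CPM values and the log2 CPM means use the TMM-scaled totals, with 0.5 added to counts on the log scale. Intervals are the estimate ± 1.96 SE. Figures were drawn with matplotlib 3.10.9. The script was checked on simulated counts.

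Same-numbered replicates deviated together, as the lowest correlation of their deviations over genes shows, for Dex against vehicle at 8 h (0.103 in KO, 0.273 in WT) and at 24 h in WT (0.227), and for KO against WT with vehicle at 2, 8 and 24 h and Dex at 2 h (0.221, 0.214, 0.212 and 0.217). There the numbers were taken to pair libraries. The labels do not say what a number marks. For Dex against vehicle at 24 h in KO (lowest correlation -0.039) the numbers were not taken to pair libraries. Even so, replicate 3 had the lowest mean nuclear level of both KO groups at 24 h.

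Alternatives were DESeq2 1.42.0, median-ratio scaling, scaling without the mt- genes, no filter, a stricter filter (genes averaging 5 CPM or more), a block for the replicate number, the compared libraries alone, each library left out, and, chosen after seeing the data, a covariate for short transcripts. Members and lists were chosen with earlier results of these data known. The genes named by rule are all mt- genes, the 3 highest and 3 lowest called nuclear members of each averaged comparison of treatments, the member of each class with the highest CPM (for complex I not reported here), pairs of isoforms, and up to 3 called members of each list with the lowest p. Every other gene was chosen after its values were seen. Gene places come from the Ensembl annotation for GRCm38, which placed 100 members; promoter sequences are RefSeq's (GRCm38.p6), matched for 74 of 88 nuclear members.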

Additional observations from a re-analysis of the deposited data

Results flagged for a closer look

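For 12 members the Dex effect, averaged over KO and WT, differed between times by edgeR's quasi-likelihood test of the difference with Benjamini-Hochberg adjustment over all genes. The effect at 8 h minus that at 2 h was positive for Ndufaf7 (0.47, adjusted p = 0.000182), Atp5sl (0.38, adjusted p = 0.00105), Ndufs3 (0.28, adjusted p = 0.0316) and Sdhd (0.20, adjusted p = 0.0246). It was negative for Cycs (-0.41, adjusted p = 0.0136), Sdhc (-0.29, adjusted p = 0.00141) and Ndufs1 (-0.18, adjusted p = 0.00257). The effect at 24 h minus that at 8 h was positive for Ndufaf3 (0.40, adjusted p = 0.0207) and Ndufaf4 (0.30, adjusted p = 0.02), and negative for Cox6a2 (-1.41, adjusted p = 0.00061), Ndufv2 (-0.32, adjusted p = 0.0445) and mt-Atp8 (-0.28, adjusted p = 0.0419). When each of the 24 libraries of a comparison was left out in turn, the calls of Ndufs3 and Sdhd held in 14 fits and those of Ndufv2 and mt-Atp8 in 9.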

How the results depend on the processing

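Of 52 counts of called members (nuclear and mt- in 26 comparisons), 0 moved by over 1.5 times under median-ratio scaling, scaling without the mt- genes or no filter, and no member named by rule reversed under any alternative run. With a mean of at least 5 CPM, 1 mt- gene was called for Dex at 24 h in KO and 1 for vehicle at 2 h. DESeq2 called 1 nuclear member for Dex at 2 h in KO, 2 mt- genes at 24 h in KO, 1 nuclear member for KO against WT without Dex and 1 mt- gene for vehicle at 2 h. With only the libraries compared, the counts were 2 mt- genes for Dex at 24 h, 3 mt- genes for Dex at 8 h in KO, 13 nuclear and 1 mt- for Dex at 8 h in WT, 5 nuclear and 0 mt- for Dex at 24 h in WT, and 2 nuclear at 8 h and 5 at 24 h for vehicle. A covariate for short transcripts was chosen after seeing the data. With it, nuclear counts were 1 for Dex at 2 h, 38 at 8 h and 34 at 24 h (all genes: 17.4%, 57.7% and 58.8%). The nuclear count was 1 for KO against WT without Dex (0.511% of all genes). For vehicle it was 1 at 2 h and 18 at 24 h (17.1% and 35.4% of all genes), with 1 mt- gene at 2 h. The causes of these moves were not tested.

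Where the numbers pair the libraries, adding the replicate block called 13 nuclear members for Dex at 8 h in WT, 19 at 24 h in WT and 1 mt- gene at 8 h in KO. Where libraries share only a number, the block gave 1 nuclear member for Dex at 2 h (1 in KO), 3 mt- genes for Dex at 24 h in KO, 7 nuclear members for the Dex effect at 24 h minus that at 8 h, 1 for KO against WT without Dex, 1 mt- gene for vehicle at 2 h, and 13 nuclear members at 8 h and 17 at 24 h for vehicle. It moved no other count by over 1.5 times.

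With each library left out in turn, nuclear counts ranged from 0 to 1 for Dex at 2 h, 11 to 20 at 8 h and 13 to 17 at 24 h, and mt- counts from 0 to 2 at 8 h and 1 to 5 at 24 h. In KO, nuclear counts ranged from 0 to 4 at 2 h, 8 to 9 at 8 h and 7 to 10 at 24 h, and mt- counts from 0 to 1 at 2 h and 0 to 5 at 24 h. In WT, nuclear counts ranged from 6 to 8 at 8 h and 6 to 14 at 24 h, and mt- counts from 0 to 4 at 24 h. For the change of the Dex effect, nuclear counts ranged from 5 to 8 (8 h minus 2 h) and 2 to 5 (24 h minus 8 h), and mt- counts from 0 to 2 for 24 h minus 8 h. For KO against WT without Dex, nuclear counts ranged from 0 to 1. For vehicle, nuclear counts ranged from 0 to 1 at 2 h, 2 to 13 at 8 h and 4 to 18 at 24 h, and mt- counts from 0 to 1, 1 to 2 and 9 to 12 at the same times. Every other range was 0 to 0.

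The scarcest members limit what could be seen: Cox6a2 had 3 to 11 counts a library at 24 h of Dex and 17 to 54 at 24 h of vehicle, and Cox7a1 had 15 to 42 and 28 to 80. The effect of depth was not tested.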
